A study of Mus musculus with 2 samples.

Results

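Wnt ligands, their receptors and their secreted modulators were followed through the nuclei of mouse vagus nerve ganglia. The members were all genes of the count table whose symbol is Wnt with a number and an optional letter, Fzd with a number, Rspo1 to Rspo4, Lgr4 to Lgr6, Sfrp1 to Sfrp5, Dkk1 to Dkk4, Lrp5 or Lrp6. This rule found 46 of 32286 genes, and it used no measured value. They were 19 Wnt genes, 4 Rspo genes, 10 Fzd genes, 3 Lgr genes, 4 Sfrp genes, 4 Dkk genes and the 2 Lrp genes, and no row was named Sfrp3. The study compared the RNA of cells in these ganglia between female and male mice. All mice were C57BL/6J by label, carried the Rosa26-floxed-STOP-Cas9-eGFP allele, ate a standard chow diet and were bought at 8 to 9 weeks of age. Each had received AAVrg-Cre, a retrograde virus carrying Cre, in the liver 4 weeks before collection, so there was no untreated or Cre-free group. The female pool held 14 ganglia of 7 mice and the male pool 16 ganglia of 8 mice, and each pool gave 1 library.

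Wnt proteins are secreted lipid-modified ligands. They bind Frizzled receptors on nearby cells, and together with the co-receptors Lrp5 and Lrp6 this stabilises beta-catenin, which then acts with TCF and LEF factors in the nucleus. R-spondins are secreted proteins that bind Lgr4, Lgr5 or Lgr6 and keep Frizzled receptors on the cell surface by holding off the ligases Rnf43 and Znrf3. Sfrp proteins bind Wnts outside the cell, and Dkk proteins mostly block the Lrp co-receptors. In the brain, this pathway is known, among other roles, for the formation of the vessel barrier.

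The female library held 17435300 unique molecular identifiers (UMIs, each a captured RNA molecule) over 3791 nuclei and the male library 27529730 UMIs over 4923 nuclei. The sex of a library was read from the number that its barcodes carry, since the count of nuclei equals that stated for each sex. Of the Xist UMIs, 13424 were female and 7 male, and of the Ddx3y UMIs 12 and 1789. The libraries shared 8 cell barcodes. Nuclei were clustered without the members, the other Wnt pathway genes or sex-linked genes, and 8340 of 8714 nuclei fell in 12 classes named from marker genes. In every class 4 or more of its own markers had at least 10 UMIs in each library. The tissue label named the ganglion alone, but 474 female and 40 male nuclei were cerebellar granule-like and 64 and 53 were pituitary-like. The mural class was small, with 37 female and 32 male nuclei. The 3 fibroblast classes were sheath fibroblast-like (496 female and 534 male nuclei), Slc47a1 fibroblast-like (158 and 353) and barrier fibroblast-like (209 and 318). Below, class names are shortened by leaving out "like", and a class stands for a profile of RNA and not for a proven cell type.

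The members held 36249 UMIs, which was 0.0806% of all. Of the 46 members, 29 had at least 100 UMIs, from 122 to 6288. The other 17 had 0 to 58 UMIs over both libraries, too few to place in a class. These were Wnt1, Wnt2, Wnt3, Wnt3a, Wnt7a, Wnt7b, Wnt8a, Wnt8b, Wnt9b, Wnt10a, Wnt10b, Wnt11, Fzd9, Fzd10, Sfrp2, Dkk1 and Dkk4. Wnt1 and Wnt8a had 0 UMIs, which allows up to 3 of the 44965030 in the table. Levels are given as UMIs per 10000 UMIs of the class, first in the female and then in the male library, and they are compared between classes only, not between genes. Of the 29 members, 19 had their highest level in the same class in both libraries. Over both libraries summed, 15 of the 29 had their highest level in a fibroblast class, 3 in sheath, 7 in Slc47a1 and 5 in barrier fibroblasts, and 9 of these 15 had the same highest class in both libraries. Of all 15331 genes with as many UMIs, 13.4% had their highest level in a fibroblast class, and 42.4% had the same highest class in both libraries.

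**Figure D1:**
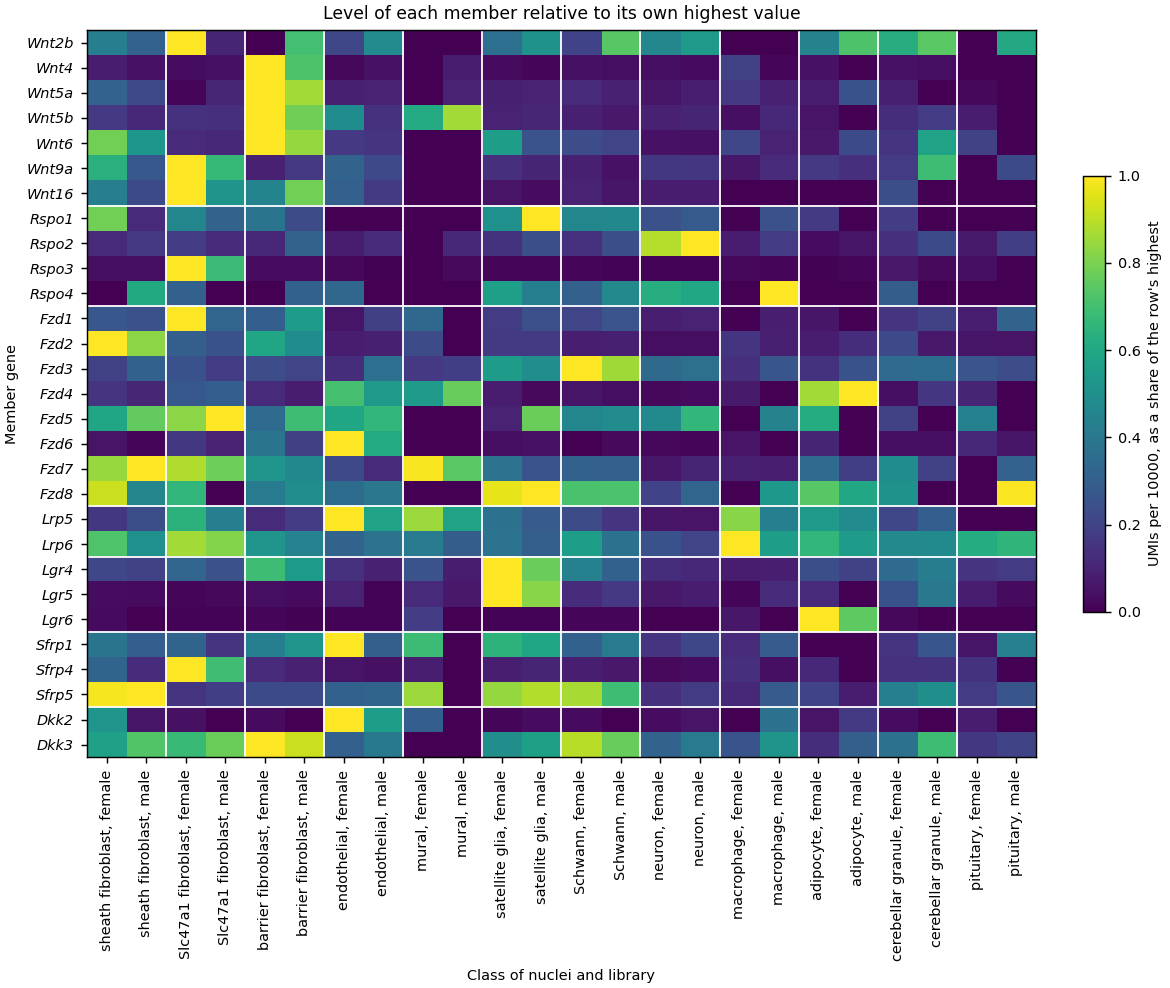
Each row is 1 of the 29 members with at least 100 UMIs, and each column a class in the female or male library. Colour gives the level (UMIs per 10000) as a share of the row's own highest value on a linear scale from 0 to 1, so rows cannot be compared with each other. Wnt4, Wnt5a and Wnt6 were brightest in barrier fibroblasts, Rspo3 and Sfrp4 in Slc47a1 fibroblasts, Lgr4 and Lgr5 in satellite glia and Fzd6 in endothelial nuclei, in both libraries.

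Differences between classes were tested with the edgeR quasi-likelihood test on UMIs summed per library and class, so that the 2 libraries are the replicates of a class. Of 12782 genes tested, 23 were members. A gene could pass the filter on low counts through 1 class alone, so the numbers of called members describe these 23 and say nothing of all 46. All 78 calls of members over the 8 comparisons had the same direction in each library taken alone.

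Among the ligands, 4 Wnt genes were high in barrier fibroblasts, a class led by Ranbp3l, Slc6a20a and Atp13a5 whose place in the tissue was not tested. Wnt4, a ligand known from kidney development, had a level of 2.05 (95% exact Poisson interval 1.74 to 2.41) and 1.48 (1.24 to 1.75) there. It was 0.157 and 0.102 in sheath fibroblasts and 0.0646 and 0.0892 in Slc47a1 fibroblasts. Both barrier values lay above every other class in both libraries, of which the highest was 0.405, in female macrophages. A Wnt4 UMI was found in 42.1% of female and 29.6% of male barrier fibroblast nuclei, at medians of 2851 and 2402 UMIs per nucleus. In macrophages, a class not known to make Wnt4 and here a gauge of free RNA, it was 4.44% and 0.741%, at 1721 and 1871 UMIs. Thinned to 1000 UMIs per nucleus, the shares were 19.6% and 13.5% in barrier fibroblasts against 1.49% and 0.741%.

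Wnt5a, which often acts without beta-catenin through Ror receptors, had levels of 1.55 and 1.34 in barrier fibroblasts and 0.490 and 0.340 in sheath fibroblasts. Slc47a1 fibroblasts held 0.0215 (1 UMI) and 0.167 (15 UMIs). The order barrier, sheath, Slc47a1 was thus the same in both libraries. Wnt5b, its close relative, had 0.898 and 0.702 in barrier fibroblasts, while sheath and Slc47a1 fibroblasts lay between 0.102 and 0.148. Mural nuclei, the pericytes and smooth muscle around vessels, held 0.549 and 0.775 of Wnt5b from 4 and 5 UMIs, so their place beside barrier fibroblasts could not be ordered. Wnt6 differed from these 3 in that sheath fibroblasts shared it, with 0.546 and 0.365 beside 0.694 and 0.583 in barrier fibroblasts, a difference that the test did not call (edgeR adjusted p = 0.29). Satellite glia held 0.387 and 0.176, and male cerebellar granule nuclei 0.401 from 5 UMIs.

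Wnt9a had the opposite distribution among fibroblasts. It was highest in Slc47a1 fibroblasts in the female library (0.582) and stood at 0.390 there in the male library. Sheath fibroblasts held 0.370 and 0.161 and barrier fibroblasts 0.0544 and 0.0971. In the male library, cerebellar granule nuclei held 0.401 from 5 UMIs. Wnt16, a ligand known from bone and joints, had 122 UMIs in all. It reached 0.151 and 0.0781 in Slc47a1 and 0.068 and 0.119 in barrier fibroblasts, with 11 UMIs or fewer in each library of any of these classes. Wnt2b had levels of 0.108 or less in every class and both libraries, and its highest class differed between the libraries.

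The promoters of Wnt4, Wnt6 and Wnt5b are shown because these ligands were called higher together in barrier than in Slc47a1 fibroblasts. RefSeq windows on GRCm38.p6 matched 29 of the 46 members, and no window was matched for Wnt5a, which moved with them. Each shows the 250 bases before the start, 5′ to 3′ on the gene's strand, with the core of the TCF and LEF motif, CTTTGA on either strand, in capitals. The Wnt4 window is chr4:137277385-137277634 (+), the Wnt6 window chr1:74771642-74771891 (+) and the Wnt5b window, at the last of 3 starts listed for it, chr6:119449387-119449636 (-).
Wnt4: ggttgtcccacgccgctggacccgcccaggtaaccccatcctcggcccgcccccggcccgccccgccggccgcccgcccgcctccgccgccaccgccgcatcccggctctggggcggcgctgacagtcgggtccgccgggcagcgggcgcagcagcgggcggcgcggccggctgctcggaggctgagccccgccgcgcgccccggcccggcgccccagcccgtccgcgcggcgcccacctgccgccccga
Wnt6: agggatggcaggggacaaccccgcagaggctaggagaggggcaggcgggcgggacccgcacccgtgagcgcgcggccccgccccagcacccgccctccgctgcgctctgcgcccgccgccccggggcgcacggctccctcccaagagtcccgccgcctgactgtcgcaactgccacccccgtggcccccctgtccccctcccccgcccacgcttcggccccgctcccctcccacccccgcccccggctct
Wnt5b: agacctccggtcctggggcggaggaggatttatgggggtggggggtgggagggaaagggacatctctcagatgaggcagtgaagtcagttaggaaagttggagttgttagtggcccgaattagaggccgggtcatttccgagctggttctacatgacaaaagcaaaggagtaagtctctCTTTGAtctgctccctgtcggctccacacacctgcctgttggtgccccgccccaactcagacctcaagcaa
The motif stood once in the Wnt5b window shown and in neither the Wnt4 nor the Wnt6 window. The other starts listed for Wnt5b did not hold it, so this contrast depends on the start shown. Of all 32851 windows, 13.8% held it, as did 4 of the 32 windows of members, those of Fzd1, Wnt5b, Wnt11 and Dkk1.

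R-spondins divided between cell types. Rspo3, known from vessels and from the stroma around stem cells, had 1290 UMIs, of which 307 and 405 came from Slc47a1 fibroblasts. Its level there was 6.61 (5.89 to 7.4) and 4.52 (4.09 to 4.98). Every other class lay at 0.444 or below in both libraries, with 0.277 and 0.255 in sheath and 0.218 and 0.216 in barrier fibroblasts. The 3 fibroblast classes thus split into one with much Rspo3 and a pair far below it. That pair still lay above neurons, Schwann nuclei and satellite glia, which held 0.103 or less in both libraries. Female cerebellar granule (0.444) and pituitary nuclei (0.276) lay above barrier fibroblasts. A Rspo3 UMI was found in 69.0% and 51.8% of Slc47a1 fibroblast nuclei and in 2.22% of macrophages in each library. Thinned to 1000 UMIs, the shares were 44.3% and 30.03% in Slc47a1 fibroblasts against at most 0.746% in macrophages, at medians of 2506 and 2374 UMIs before thinning against 1721 and 1871. The gene lies on chr10:29452416-29535867 (mm10, minus strand).

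Rspo2 belonged to the neurons, whose level was 1.26 (1.18 to 1.34) and 1.42 (1.36 to 1.47). The other classes ranged from 0 in female mural nuclei to 0.453 in male barrier fibroblasts. The summed level of the neuron marker list outside neurons ran from 8.81 to 30.4 (female) and from 16.3 to 34.2 (male), and its part in these low Rspo2 levels was not tested. Neuron clusters differed among themselves in both libraries. Cluster 19, led by Grik1, Htr4 and Cdh9, held 2.32 and 2.35, and cluster 14, whose leading genes include Trpm8 and Grm8, held 0.592 and 0.762. The largest cluster, led by Cntn5, held 1.32 and 1.68. Rspo1 and Rspo4 were rare, with 198 and 153 UMIs in all. Rspo1 reached 0.071 and 0.141 in satellite glia and 0.111 and 0.017 in sheath fibroblasts, and Rspo4 reached 0.0436 and 0.0419 in neurons, with a male macrophage level of 0.0699 from 2 UMIs.

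**Figure D2:**
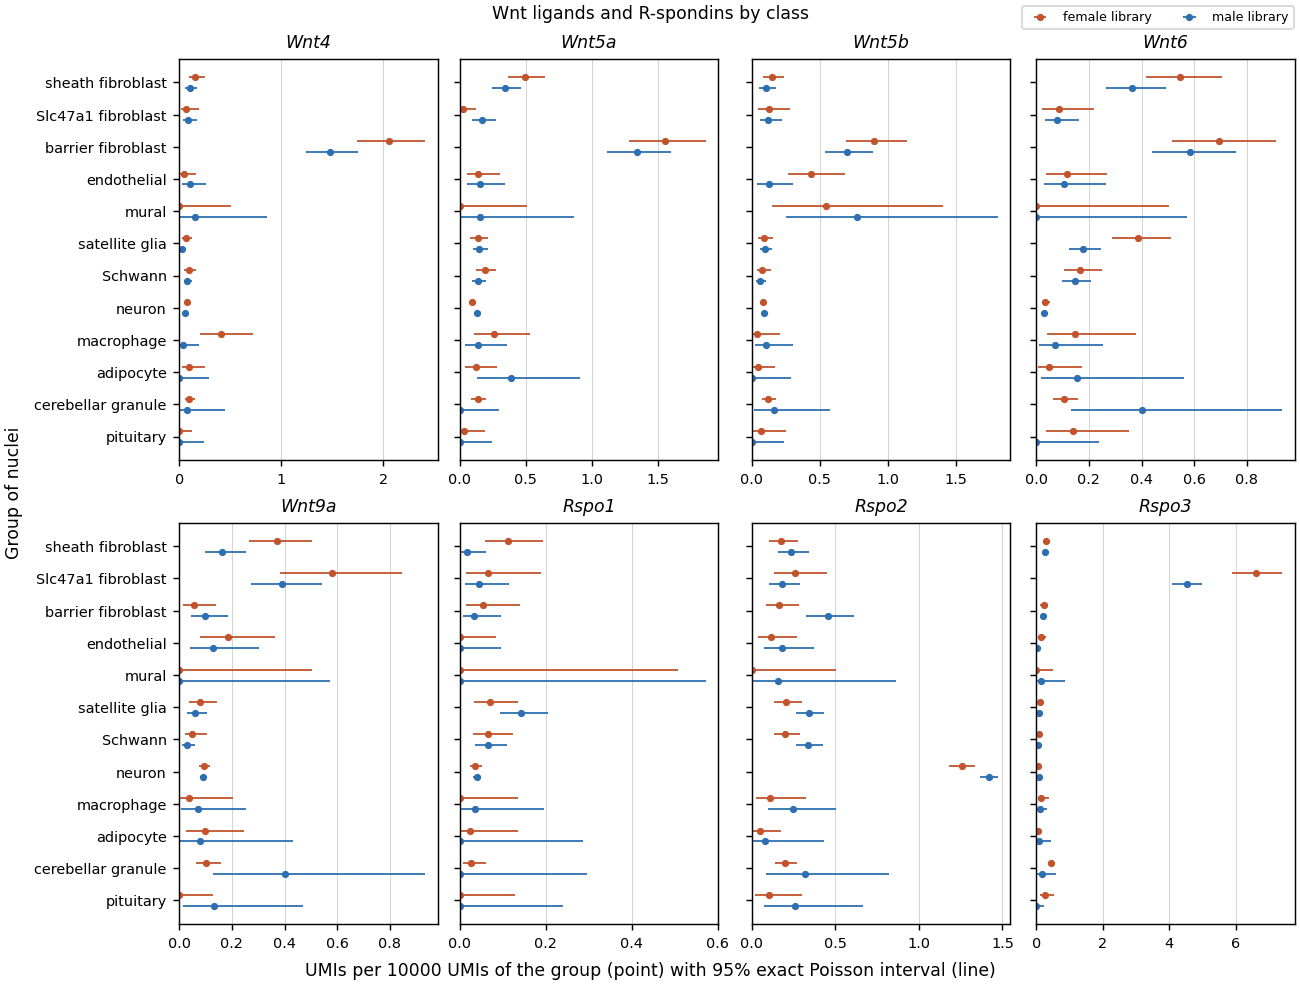
Levels of 8 ligands and R-spondins (x axis, UMIs per 10000 UMIs of the class, linear, from 0) in the 12 classes (y axis), with the female library in orange and the male in blue. Points are values and lines 95% exact Poisson intervals, which cover counting error only. Rspo3 in Slc47a1 fibroblasts (6.61 and 4.52), Wnt4 in barrier fibroblasts (2.05 and 1.48) and Rspo2 in neurons (1.26 and 1.42) stand clear of the other classes.

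The Frizzled receptors were led by several classes. Fzd2 was highest in sheath fibroblasts, with 1.2 and 0.993, and barrier fibroblasts followed with 0.708 and 0.583. Fzd3, known from axon growth and planar polarity, was highest in Schwann nuclei, with 2.49 and 2.13, and satellite glia held 1.37 and 1.21. Neurons held 0.86 and 0.917 of Fzd3. Fzd4, a receptor known from the vessel barrier of the brain, was highest in adipocytes, with 0.87 and 1.01, while endothelial nuclei held 0.714 and 0.544 and mural nuclei 0.549 and 0.775. The counting intervals of these 3 classes overlapped, so they could not be ordered. Fzd6 was the endothelial receptor of the family, with 2.12 (1.71 to 2.6) and 1.29 (0.961 to 1.71), and barrier fibroblasts came next with 0.816 and 0.399. No Fzd6 UMI was found in mural nuclei, which allows up to 0.412 (female) and 0.465 (male).

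Of the remaining receptors, Fzd7 held 0.351 and 0.416 in sheath and 0.366 and 0.323 in Slc47a1 fibroblasts, and its female mural level of 0.412 rested on 3 UMIs. Fzd1 reached 0.409 in female Slc47a1 fibroblasts but 0.134 in male ones. Fzd5 and Fzd8 stayed at 0.0781 or less and at 0.131 or less in all classes. The co-receptor Lrp6 was spread over all classes, from 0.776 in male neurons to 3.68 in female macrophages. Slc47a1 fibroblasts held 3.17 and 3, above sheath (2.67 and 1.85) and barrier fibroblasts (1.92 and 1.63). Lrp5 was highest in endothelial nuclei, with 0.807 and 0.466, followed by the mural class with 0.686 and 0.465 from 5 and 3 UMIs.

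Among the receptors for R-spondins, Lgr5, known as a marker of stem cells of the gut, had 2.21 (1.96 to 2.48) and 1.82 (1.64 to 2.02) in satellite glia, the cells that wrap neuron bodies. Cerebellar granule nuclei came next with 0.553 from 107 UMIs and 0.881 from 11. Schwann nuclei held 0.28 and 0.367, neurons 0.154 and 0.181, and each fibroblast class 0.0816 or less. Its UMIs were found in 31.4% and 34.0% of satellite glia nuclei and in 0.741% and 4.44% of macrophages, at medians of 1949 and 2160.5 against 1721 and 1871 UMIs. Thinned, the shares were 15.8% and 14.5% against at most 2.96%. Within satellite glia, cluster 9 held 3.25 and 2.18 and cluster 6 held 1.1 and 1.55. Of the Schwann clusters, cluster 12 held 0.501 and 0.964 and cluster 13 held 0.0466 and 0.0688. These clusters were uneven between the libraries, cluster 12 with 312 female and 80 male nuclei. Satellite cluster 17 (244 female and 6 male nuclei) and Schwann cluster 5 (15 and 547) are not described here. In cluster 12 the satellite glia markers came second, at a mean log2 fold of 0.75, and their part in its Lgr5 level was not tested.

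Lgr4 was found in every class. It was highest in satellite glia (5.9 and 4.55), with barrier fibroblasts next (4.07 and 3.21) in both libraries. Schwann nuclei held 2.59 and 1.82 and cerebellar granule nuclei 2.07 and 2.48, the latter from 31 UMIs. Sheath and Slc47a1 fibroblasts held 1.26 and 1.15, and 1.92 and 1.46. Slc47a1 fibroblasts, which had the high Rspo3, were thus not those with the high Lgr4. Among the named classes, Lgr6 was highest in adipocytes, with 2.27 (1.84 to 2.78) and 1.71 (1.07 to 2.59) from 94 and 22 UMIs. All other classes had 9 Lgr6 UMIs or fewer in each library. Outside the classes, unnamed nuclei held 0.509 from 18 UMIs in the female library. The male unnamed nuclei had 0, which allows up to 0.191. The share of adipocyte nuclei with a UMI was 51.5% and 31.4%, or 18.6% and 20% when thinned, at medians of 3434 and 2980 UMIs. In macrophages it was 2.96% and 0 of 135, which allows up to 2.22%, and at most 1.49% when thinned.

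**Figure D3:**
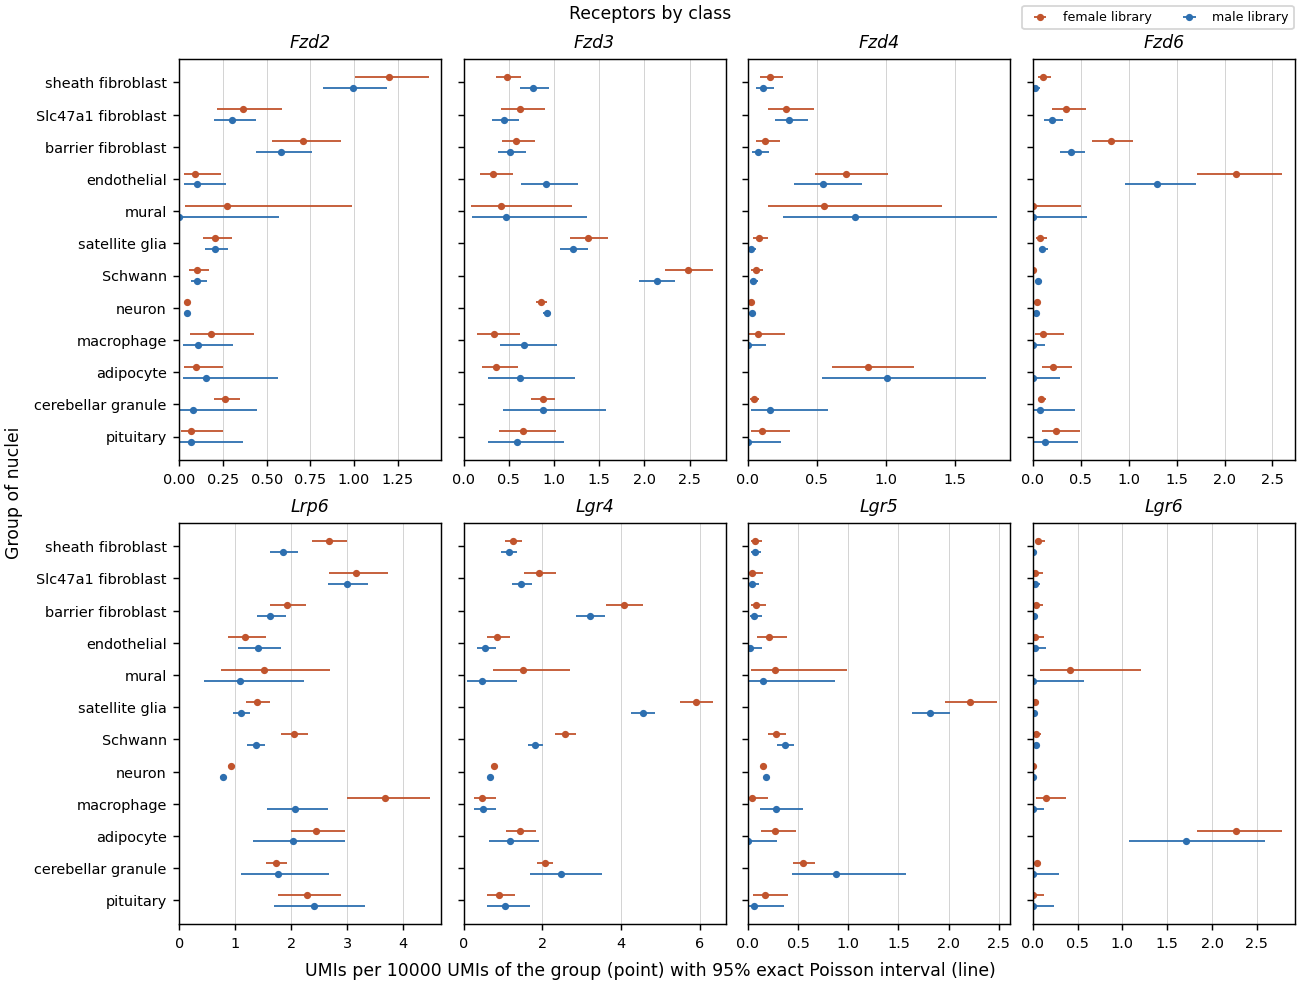
Levels of 8 receptors (x axis, UMIs per 10000 UMIs of the class, linear, from 0) in the 12 classes (y axis), with points and 95% exact Poisson intervals for the female (orange) and male (blue) library. Lgr5 was high in satellite glia (2.21 and 1.82), Lgr6 in adipocytes (2.27 and 1.71) and Fzd6 in endothelial nuclei (2.12 and 1.29), while Lrp6 was found in all classes.

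Secreted modulators also marked out classes. Sfrp4 was highest in Slc47a1 fibroblasts (1.66 and 1.15), above sheath (0.536 and 0.212) and barrier fibroblasts (0.204 and 0.151). Sfrp5 was highest in sheath fibroblasts (0.953 and 0.968), with satellite glia at 0.813 and 0.856 and Schwann nuclei at 0.84 and 0.668. Of these intervals, that of the male Schwann nuclei alone did not overlap with the sheath interval. Sfrp5 was therefore shared between a fibroblast class and both glia classes. Sfrp1 stood at 0.599 and 0.181 in endothelial nuclei and at 0.387 and 0.352 in satellite glia, so its leading class changed between the libraries. Dkk3, a divergent member of its family, was highest in barrier fibroblasts (1.28 and 1.18), but Schwann nuclei (1.14 and 0.983) and Slc47a1 fibroblasts (0.862 and 0.993) were near. Dkk2 held 0.461 and 0.259 in endothelial nuclei, from 20 and 10 UMIs. In sheath fibroblasts it held 0.24 in the female library, from 26 UMIs, but 0.0255 in the male library, from 3.

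The 3 fibroblast classes were then compared with each other. In Slc47a1 against barrier fibroblasts, 6 members were called higher, against 5.86% of all genes, and 6 lower, against 6.58%. Rspo3 was higher by 4.67 ± 0.29 on the log2 scale (SE, edgeR adjusted p = 8.07e-14), Sfrp4 by 3.0 ± 0.36 (edgeR adjusted p = 1.3e-07) and Wnt9a by 2.60 ± 0.50 (edgeR adjusted p = 0.00024). Lrp5, Fzd4 and Lrp6 were higher by 0.85 to 1.82. The 4 ligands high in barrier fibroblasts were lower, Wnt4 at -4.33 ± 0.39 (edgeR adjusted p = 4.1e-10), Wnt5a at -3.60 ± 0.39, Wnt6 at -2.88 ± 0.46 and Wnt5b at -2.60 ± 0.38. The Wnt5a ratio of each library alone was -5.59 (female) and -2.96 (male). Lgr4 (-1.08 ± 0.19) and Fzd2 (-0.92 ± 0.28) were also lower. The median over the 23 tested members was -0.33 and over all genes 0.0034. With DESeq2 the Fzd2 call was lost (adjusted p = 0.079), and without the library term those of Fzd2, Fzd4 and Lrp6 (edgeR adjusted p = 0.0842, 0.0624 and 0.111).

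Sheath against barrier fibroblasts gave 4 members called higher, against 5.46% of all genes, and 5 lower, against 6.33%. Wnt4 stood at -3.82 ± 0.31 on the log2 scale (edgeR adjusted p = 9.9e-11), Fzd6 at -3.19 ± 0.46, Wnt5b at -2.72 ± 0.33, Wnt5a at -1.85 ± 0.28 and Lgr4 at -1.64 ± 0.18. Sfrp5 was higher by 2.09 ± 0.30 (edgeR adjusted p = 3.06e-06). Wnt9a (1.67 ± 0.52), Fzd2 (0.72 ± 0.22) and Dkk2 were called higher too. These 3 calls were lost with DESeq2 (adjusted p = 0.0725 for Wnt9a, 0.168 for Fzd2 and 0.188 for Dkk2) and without the library term (edgeR adjusted p = 0.0847, 0.152 and 0.0776), and the female and male Wnt9a ratios were 2.61 and 0.69. Rspo3 did not pass here (0.23 ± 0.38, edgeR adjusted p = 0.785).

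Slc47a1 against sheath fibroblasts gave 5 members higher, against 5.55% of all genes, and 4 lower, against 5.36%. Rspo3 was higher by 4.44 ± 0.27 (edgeR adjusted p = 1.12e-13), Fzd6 by 2.08 ± 0.56, Sfrp4 by 2.01 ± 0.31, Lrp5 by 1.43 ± 0.35 and Lrp6 by 0.56 ± 0.18. Sfrp5 stood at -2.42 ± 0.33, Wnt6 at -2.33 ± 0.47, Wnt5a at -1.75 ± 0.46 and Fzd2 at -1.64 ± 0.26. The Wnt5a ratio was -3.94 (female) and -0.99 (male). Without TMM factors the Lrp6 call was lost (edgeR adjusted p = 0.108), and with DESeq2 the Fzd6 call (adjusted p = 0.0627). Without the library term both were lost (edgeR adjusted p = 0.482 and 0.115). As sums over each class, Rspo3 and Sfrp4 of Slc47a1 fibroblasts thus differed from both other fibroblast classes in the same direction.

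**Figure D4:**
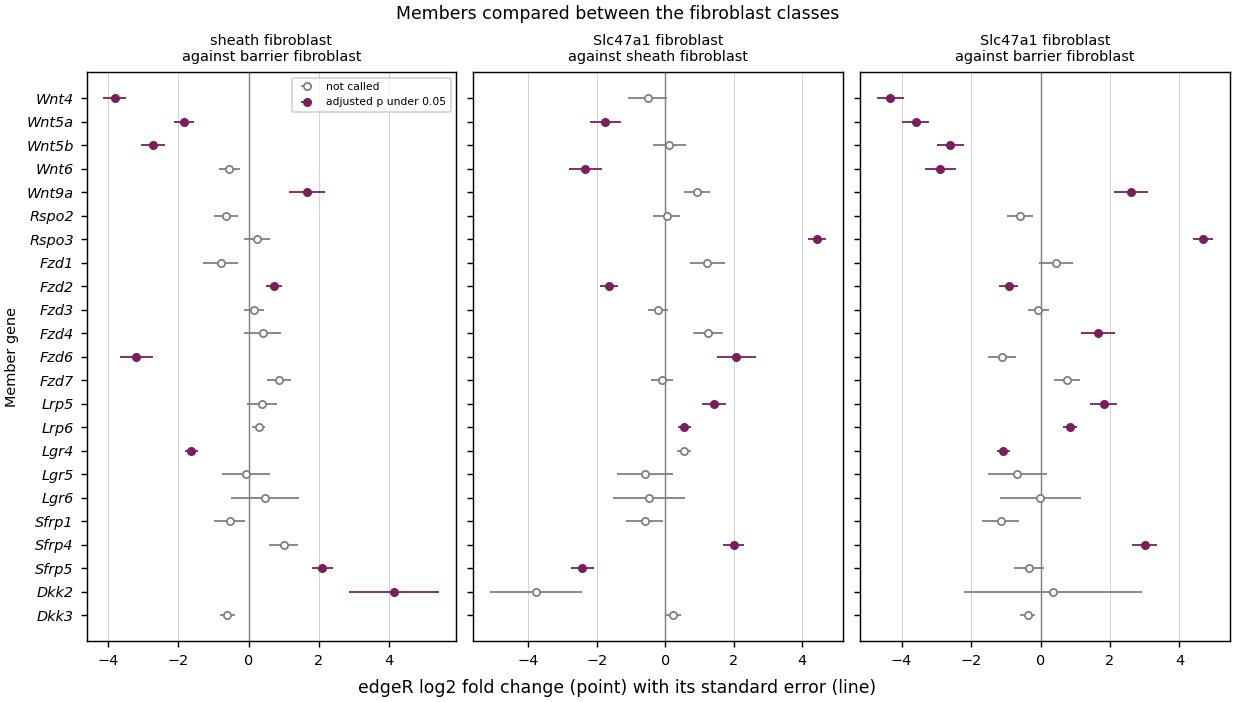
Log2 fold changes (x axis) of the 23 tested members (y axis) in the 3 comparisons between fibroblast classes, with lines for the standard error. Filled points passed an edgeR adjusted p of 0.05 and open ones did not. Rspo3 lies far to the right in both comparisons of Slc47a1 fibroblasts (4.44 and 4.67), and Wnt4 far to the left wherever barrier fibroblasts are the reference (-3.82 and -4.33).

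Other genes of the pathway were taken from a list of 64, of which 51 were tested. Of these, 4 were higher and 12 lower in Slc47a1 than in barrier fibroblasts, against 5.86% and 6.58% of all genes. In sheath against barrier fibroblasts the counts were 6 and 7, against 5.46% and 6.33%. In Slc47a1 against sheath fibroblasts they were 4 and 7, against 5.55% and 5.36%. The 4 higher in Slc47a1 than in barrier fibroblasts were Daam2, Tcf7l2, Tcf7l1 and Ror1, at 0.86 to 1.60, and the 6 higher in sheath were Gpc3, Ror1, Daam2, Prickle2, Gpc4 and Ror2, at 0.84 to 2.37. The median over the tested pathway genes was 0.0034 in Slc47a1 against barrier fibroblasts, as over all genes. Rnf43, the ligase held off by R-spondins, had 0.639 and 0.583 in barrier fibroblasts, 0.172 and 0.19 in Slc47a1 fibroblasts and 3 UMIs in all in sheath fibroblasts. Apcdd1, Tnfrsf19 and Nkd1 stood at -3.58 ± 0.58, -3.81 ± 0.49 and -2.61 ± 0.56 in Slc47a1 against barrier fibroblasts. Ptk7, a polarity co-receptor, stood at -3.54 ± 0.39 and Lef1 at -2.88 ± 0.56 (edgeR adjusted p = 1.85e-08 and 0.00028). Wls, the carrier that Wnts need to leave a cell, held 5.32 and 5 in barrier fibroblasts, 2.46 and 1.89 in Slc47a1 and 1.3 and 1.22 in sheath fibroblasts. Axin2, a widely used readout of the pathway, had 0.231 and 0.216 in barrier, 0.129 and 0.136 in sheath and 0.129 and 0.0446 in Slc47a1 fibroblasts, chosen after its values were seen.

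Sheath fibroblast clusters held several kinds, set by Cldn1, Col15a1, Pi16 and Prg4, which are no members. Each kind joined the sub-clusters, named sheath or unnamed, with at least 75% of the gene's highest level in any sub-cluster. Cldn1 also led a sheath sub-cluster of 38 female and 52 male nuclei that fell in no kind, as did one led by Mmp13 (15 and 9). Nuclei with high Cldn1, a tight junction gene (243 female and 267 male), carried Wnt6 at 1.01 and 0.601, Sfrp5 at 1.59 and 1.56, Fzd2 at 1.74 and 1.5 and Fzd7 at 0.666 and 0.655. Those with high Col15a1 (123 and 171) held 0.0817 and 0.0606 of Wnt6, 0.163 and 0.333 of Sfrp5 and 0.449 and 0.394 of Fzd2. Most of the Wnt6 and Sfrp5 of the sheath class thus came from the Cldn1 kind, and Cldn1 is also on the marker list of barrier fibroblasts. The Pi16 kind (77 and 35) held 1.91 and 1.58 of Sfrp4, 1.02 and 0.659 of Wnt9a and 4.24 and 3.43 of Lrp6. In the Slc47a1 class these stood at 1.66 and 1.15, 0.582 and 0.39, and 3.17 and 3. High Sfrp4, Wnt9a and Lrp6 were therefore not limited to that class. The female Pi16 kind also held 21 of the 26 Dkk2 UMIs of female sheath fibroblasts, against 1 of 3 in the male library.

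A further sub-cluster led by Prg4, a lubricant of joints and sliding surfaces, passed no naming rule and was kept out of the classes. Its 32 female and 43 male nuclei held Wnt16 at 1.3 and 0.717, from 13 and 9 UMIs, while the Cldn1 kind held 0.141 and 0.0354, from 7 and 2 UMIs, and the Col15a1 and Pi16 kinds had 0. They also held Rspo3 at 2.4 and 2.31 and Lgr4 at 3 and 2.95. Rspo3 was therefore not limited to the Slc47a1 class. These kinds are values of 2 libraries with counting intervals, and no test was made between them. Another sub-cluster led by Prg4 (30 female and 38 male nuclei) was set aside as mixed and is in none of these kinds.

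**Figure D5:**
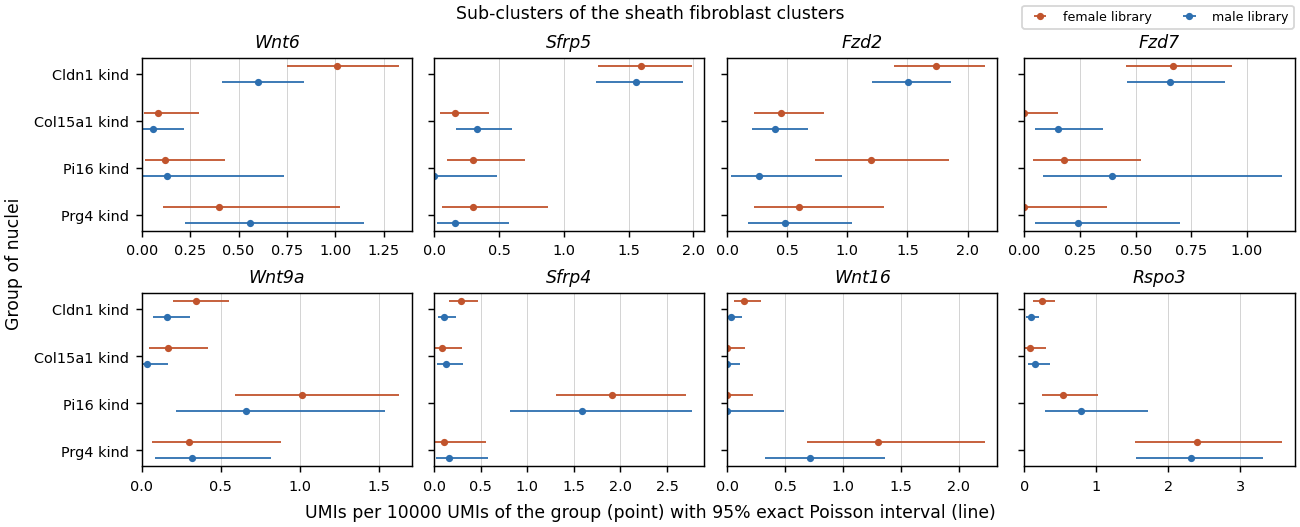
Levels of 8 members (x axis, UMIs per 10000 UMIs of the kind, linear, from 0) in 4 kinds of nuclei from the sheath fibroblast clusters (y axis), with points and 95% exact Poisson intervals for the female (orange) and male (blue) library. Wnt6, Sfrp5, Fzd2 and Fzd7 lie to the right in the Cldn1 kind, Sfrp4 and Wnt9a in the Pi16 kind and Wnt16 and Rspo3 in the Prg4 kind.

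Fibroblasts as a whole were set against the mean of the 9 other classes. Here 14 members were called higher, against 14.8% of all genes, and 1 lower, against 6.88%. The ligands Rspo3 (2.75 ± 0.23, edgeR adjusted p = 2.23e-11), Wnt4 (2.5 ± 0.40), Wnt6 (2.29 ± 0.42), Wnt9a (2.24 ± 0.45), Wnt5a (1.87 ± 0.30) and Wnt5b (1.17 ± 0.26) were higher. So were Fzd2 (2.43 ± 0.18), Dkk3, Sfrp4, Fzd1, Fzd6, Fzd7, Lgr4 and Lrp6, at 0.54 to 2.09. The Fzd6 call was lost with clustering scaled within each library (edgeR adjusted p = 0.0692) and without the library term (edgeR adjusted p = 0.0548). Lgr5 was lower, at -2.12 ± 0.36. The median over the tested members was 1.17 and over all genes 0.07, and 17 of the 51 other pathway genes were higher and 5 lower. Of the tested members, 8 had a class with 0 UMIs in both libraries, and in such a comparison their fold change rests on the prior count of the fit and is no bound. For Wnt6, Wnt9a, Dkk3 and Fzd6, at 0 in mural nuclei, and Wnt4, at 0 in pituitary nuclei, the log2 fold changes were 1.34, 1.49, 0.67, 0.96 and 1.62 in a fit without the mural, adipocyte, granule and pituitary classes, chosen after these values were seen. In that fit 16 members were higher, against 15.5% of all genes, and 2 lower, against 14.6%.

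In endothelial nuclei, 6 members were called higher than the mean of the other classes, against 11.4% of all genes, and 1 lower, against 4.35%. These were Fzd6 (4.62 ± 0.32, edgeR adjusted p = 5.94e-13), Dkk2 (3.95 ± 0.62), Fzd4 (2.59 ± 0.33), Lrp5 (2.26 ± 0.34), Sfrp1 (1.94 ± 0.50) and Wnt5b (1.28 ± 0.39), and Lgr4 stood at -1.08 ± 0.21. A Frizzled gene pair and a co-receptor were thus called higher in endothelial nuclei summed as a class. The calls of Sfrp1 and Wnt5b leaned on the female library, with ratios of 2.20 and 1.74 against 0.25 and 0.16 in the male. The Wnt5b call was lost with clustering scaled within each library (1.02, edgeR adjusted p = 0.113). Of the Sfrp1 UMIs, 25 and 4 came from sub-cluster 10.1, led by Pkhd1l1, Eln and Bmx. In the fit with those 4 classes left out, 5 members were higher, against 10.2%, and 4 lower, against 5.49%, and the Sfrp1 call was lost (edgeR adjusted p = 0.0544). Among the other pathway genes 12 were higher and 4 lower. Lef1, a nuclear partner of beta-catenin, held 3.5 and 4.17 in endothelial nuclei and rose by 5.14 ± 0.19 (edgeR adjusted p = 1.15e-19). Celsr1, Tnfrsf19, Apcdd1, Nkd1 and Adgra2 were also higher, by 1.85 to 2.82.

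Of the members, neurons had 2 called higher, against 27.8% of all genes, and 8 lower, against 17.3%. Rspo2 was higher by 3.20 ± 0.16 (edgeR adjusted p = 1.91e-17) and Fzd3 by 0.61 ± 0.16, but the Fzd3 call was lost without TMM factors (edgeR adjusted p = 0.0585). Fzd4, Fzd2, Fzd7, Sfrp4, Rspo3, Sfrp5, Lrp6 and Lgr4 were lower, at -2.14 to -0.77. The largest of these, Fzd4, lost its call in nuclei with over 2000 UMIs (-1.49, edgeR adjusted p = 1.0). With the same 4 classes left out, 2 members were higher, against 28.8% of all genes, and 15 lower, against 23.9%. Wnt6 stood at -2.31 ± 0.25, Lrp5 at -2.34 ± 0.21 and Fzd6 at -1.71 ± 0.35 in that fit. Of the other pathway genes 12 were higher and 14 lower in neurons, with Tcf7l2 at -3.03 ± 0.19, Gpc4 at -2.79 ± 0.28 and Celsr3 at 2.41 ± 0.31.

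The glia classes together had 7 members higher than the mean of the others, against 19.5% of all genes, and 4 lower, against 12.7%. Lgr5 (2.56 ± 0.20, edgeR adjusted p = 7.38e-12), Dkk3 (1.64 ± 0.23), Sfrp5 (1.57 ± 0.15), Fzd3 (1.56 ± 0.13), Sfrp1 (1.55 ± 0.35), Lgr4 (1.55 ± 0.10) and Wnt6 (1.47 ± 0.41) were higher. Fzd4, Rspo3, Wnt5b and Lrp6 were lower, at -1.60 to -0.32, but with DESeq2 the Wnt5b call was lost (adjusted p = 0.0511). Without the library term the Wnt5b and Lrp6 calls were lost (edgeR adjusted p = 0.0714 and 0.203), in nuclei with over 2000 UMIs that of Fzd4 (edgeR adjusted p = 1.0), and with clustering scaled within each library that of Rspo3 (edgeR adjusted p = 0.152). With the 4 classes left out, 8 members were higher, against 18.5%, and 9 lower, against 15.4%, and the Wnt6 call was lost (0.52, edgeR adjusted p = 0.0517). Dkk3 then stood at 0.34 ± 0.12 and Sfrp1 at 0.62 ± 0.22. Of the other pathway genes 15 were higher and 10 lower, led by Celsr1 (2.98 ± 0.37), Sostdc1 (2.93 ± 0.24) and Daam2 (2.36 ± 0.12).

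Satellite glia against Schwann nuclei gave 3 members higher, against 6.93% of all genes, and 2 lower, against 6.27%. Lgr5 was higher by 2.62 ± 0.26 (edgeR adjusted p = 3.73e-09) and Lgr4 by 1.27 ± 0.17 (edgeR adjusted p = 8.21e-07). Both R-spondin receptors found in glia thus favoured satellite glia. Fzd2 (1.02 ± 0.31), Fzd3 (-0.82 ± 0.21) and Dkk3 (-0.63 ± 0.20) were called too, and all 3 calls were lost with DESeq2 (adjusted p = 0.0877, 0.0772 and 0.0683) and without the library term (edgeR adjusted p = 0.0834, 0.135 and 0.271). Among the other pathway genes, 11 were higher and 6 lower. Frzb, a secreted Wnt binder that the naming rule left out of the members, held 1.07 and 0.71 in Schwann nuclei and 0.0316 and 0.141 in satellite glia (-3.17 ± 0.34, edgeR adjusted p = 1.85e-08).

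Female and male levels were set side by side within each class, with no test, since each sex is 1 library and sex cannot be told apart from library. The counting intervals of the libraries lay apart for 4 of the 29 members in sheath fibroblasts (Wnt9a, Lrp6, Sfrp4 and Dkk2), against 11.5% of the 15331 genes with as many UMIs. They lay apart for 2 in Slc47a1 fibroblasts (Rspo3 and Fzd1), against 9.56%, and for 3 in barrier fibroblasts (Rspo2, Fzd6 and Lgr4), against 8.76%. The counts were 3 in endothelial nuclei against 6.26%, 2 in satellite glia against 11.3%, 2 in Schwann nuclei against 12.3%, 4 in neurons against 25.5% and 2 in macrophages against 4.11%. They were 0 in mural (1.17%), adipocyte (3.89%), granule (5.84%) and pituitary nuclei (4.51%). No difference of the members from other genes is read from these counts. The Pi16 kind, where Sfrp4, Wnt9a, Lrp6 and Dkk2 were high, held 77 of the 496 female but 35 of the 534 male sheath nuclei, and its part in the first 4 differences was not tested. In the Slc47a1 class Rspo3 was higher in the female library, at 6.61 against 4.52, as was the summed level of that class's own markers, at 189 against 141. Markers of neurons summed to 8.81 there in female and 18.5 in male nuclei.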

How the data were processed

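Single-nucleus RNA was measured in 1 female and 1 male library. The authors ran Cell Ranger on mm10 with introns included, evened the libraries for mapped reads and filtered nuclei, and deposited raw counts per gene and nucleus. The libraries were told apart by barcode suffix, and 0 columns were left unmapped. Genes seen in at least 3 nuclei, less the members, the other pathway genes and sex-linked genes, gave 10 principal components, and nuclei were clustered by Louvain at resolution 1.0 with 30 neighbours (igraph 0.11.9, Python 3.11.15). A cluster was named where 3 or more markers with at least 10 UMIs were 1.5 times above the other nuclei. Clusters with a second marker list were clustered again, and mixed sub-clusters (109 female and 114 male nuclei) were set aside. No doublet caller was run. A further 97 female and 54 male nuclei stayed unnamed.

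UMIs were summed per library and class (24 sums) and tested with edgeR 4.0.16 in R 4.3.3 (quasi-likelihood, TMM, filter at 10 counts, Benjamini-Hochberg at 0.05), with class and library as terms and 11 residual degrees of freedom. The library term pairs classes of 1 pool and takes out the shift between the pools. The p-values then rest on how class differences vary between 2 pools of opposite sex, with the spread estimated over all classes. They do not measure the spread between mice. The test was tried on simulated counts with a fixed spread, no shift between libraries and changes in well-counted genes only. That trial does not cover members with few or no UMIs in a class. Intervals are exact Poisson for levels and exact binomial for shares and cover counting error only. Single-library log2 ratios carry no test. Every member was described, with levels for those of at least 100 UMIs. Of the other pathway genes only some were named, and in the fibroblast comparisons these went beyond those with the largest fold changes. The members and lists were chosen with earlier results of these data known. Alternatives were DESeq2 1.42.0, no TMM factors, no filter, no library term, other clusterings, deeper nuclei and single libraries.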

Additional observations from a re-analysis of the deposited data

How the results depend on the processing

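Of the 78 calls of members, 57 held in all 8 refits and 0 changed direction. DESeq2 kept 69, the fit without TMM factors 76, the fit with no filter 71, the clustering at a lower resolution 76, the clustering scaled within each library 71, nuclei with over 2000 UMIs 69 and the fit without the mural, adipocyte, granule and pituitary classes, added after seeing the data, 75. Without the replicate block that pairs the classes of a library, 64 calls were kept, and the number of called members went from 9 to 6 for sheath against barrier, from 12 to 9 for Slc47a1 against barrier fibroblasts and from 5 to 2 for satellite glia against Schwann nuclei. That last count was also 2 with DESeq2, 3 with no filter and 3 in nuclei with over 2000 UMIs, and Lgr4 and Lgr5 held in each of these. The share of all genes called in these refits is not given, so the falls are not read as a result about the members. With the 4 classes left out, the count went from 10 to 17 for neurons and from 11 to 17 for glia. Of all genes, the share called lower went from 17.3% to 23.9% for neurons and from 12.7% to 15.4% for glia. The share called higher went from 27.8% to 28.8% and from 19.5% to 18.5%. This fit changed both the classes compared with and the genes tested, with 25 members tested in place of 23, and Rspo1 and Fzd8 were among the new calls in glia. The causes of these changes were not tested. With 1 library per sex no result of sex can be tested, and members under about 100 UMIs, and the mural, pituitary and male granule classes, were too shallow to order.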
